A study of Oryctolagus cuniculus with 8 samples.

Results

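The genes described here are 7 that encode proteins which the liver secretes into blood plasma: ALB, APOA1, APOE, HP, HPX, RBP4 and TF. They were taken as every probe whose RefSeq accession belonged to one of these rabbit genes, which gave 12 of the 43603 different probes on the array and 7 of its 680 named genes. RNA from cultured cells of Dutch rabbits was measured in 8 samples, each on 1 Agilent array of 1 colour. The samples formed 4 groups of 2, and the labels name no genetic change in any of them. Embryonic stem (ES) cells, which derive from the embryo, were the lines rdES4 and rdES2-1. Induced pluripotent stem (iPS) cells are body cells reprogrammed to an ES-like state, and were the line iPS-L1, made from liver cells, at passages 7 and 23, and the line iPS-S1, made from stomach cells, at passages 6 and 22. The somatic group was the cultured liver cells and the cultured stomach cells, 1 array each. ES and iPS cells were kept in stem cell medium and both somatic cultures in a somatic cell medium, so medium and cell type cannot be told apart in any comparison with somatic cells. Each tissue gave 1 iPS line, and the reprogramming factors are not named. Whether samples of a group came from separate animals is not given either, so p-values measure only the spread between these samples.

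Hepatocytes, the main epithelial cells of the liver, make most plasma proteins and export them through the secretory pathway. Several members carry a cargo: transferrin (TF) carries iron, haptoglobin (HP) free haemoglobin, hemopexin (HPX) haem, and retinol-binding protein 4 (RBP4) retinol, while albumin (ALB) carries fatty acids and many other ligands. The apolipoproteins APOA1 and APOE coat lipoprotein particles. Outside the liver, APOE is also made by macrophages, TF by several embryonic and neural tissues, RBP4 by fat tissue, and HP is an acute phase protein that is induced in inflammation.

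Levels are given as the log2 processed signal relative to the 75th percentile of the array, so that 0 marks that percentile and a step of 1 is a doubling. Signals are the scanner's processed intensities, which were not scaled between arrays. The 75th percentile was at an intensity between 273.8 and 341.5 on the ES and iPS arrays and at 163.8 and 154.8 on the liver and stomach cell arrays. The lowest intensity that the scanner software marked as well above background was between 6.16 and 8.28 on the 8 arrays, and no spot was saturated. Differences between groups were tested with limma over 28844 probes, and a probe was called where its p, adjusted over all of them by Benjamini-Hochberg, was under 0.05. A gene with several probes is represented by the brightest one. Except between passages, both arrays of each iPS line entered as their mean, so that n is the number of lines. In cultures, fewer cells of a type and less RNA per cell cannot be told apart.

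ALB and APOA1 were not detected in any sample. The single ALB probe was not well above background on any of the 8 arrays, liver cells included, where its intensity was 1.65. ALB encodes the most abundant plasma protein and is the defining hepatocyte marker, so the culture labelled liver cells showed no measurable RNA of that marker. No sample here is known to hold hepatocyte RNA, so whether this probe can read ALB was not tested. The single APOA1 probe, for the main protein of high-density lipoprotein, was likewise too dim to measure on all 8 arrays, with intensities between 1.70 and 4.47. Of the 8 hepatocyte markers listed for this check, ALB was the only one with a named probe. Genes of fibroblasts and connective tissue were high in both somatic cultures: DCN, a matrix proteoglycan, was at 4.44 in liver cells and 5.42 in stomach cells, and MGP, an inhibitor of calcification, at 7.15 and 5.18. The macrophage receptor genes CD14 (0.15 and -0.93) and MSR1 (-0.48 and -1.96) were well above background in both cultures as well. The smooth muscle actin gene ACTA2 was at 7.02 and 5.13, while MYH11, the other smooth muscle marker with a named probe, was at -3.36 and -4.82 and well above background in only 1 of the 2 cultures. Of 5 gastric epithelium markers, 3 had a named probe: in stomach cells ATP4A was at -4.40 and PGC at -4.08, and ATP4B was not well above background. ATP4A was lower there than on every ES and iPS array, and PGC lay within their range. The part of such cells in the levels below was not tested. POU5F1, a transcription factor that marks pluripotent cells, was between 6.69 and 7.62 on the ES and iPS arrays and at -3.63 and -3.46 in liver and stomach cells. PODXL, the other pluripotency marker with a named probe, was between 7.29 and 7.63 on the ES and iPS arrays. It was at 2.34 in liver cells and -4.54 in stomach cells, and well above background in only 1 of the 2 cultures. The 5 members other than ALB and APOA1 were well above background on all 8 arrays with each of their 10 probes.

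**Figure D1:**
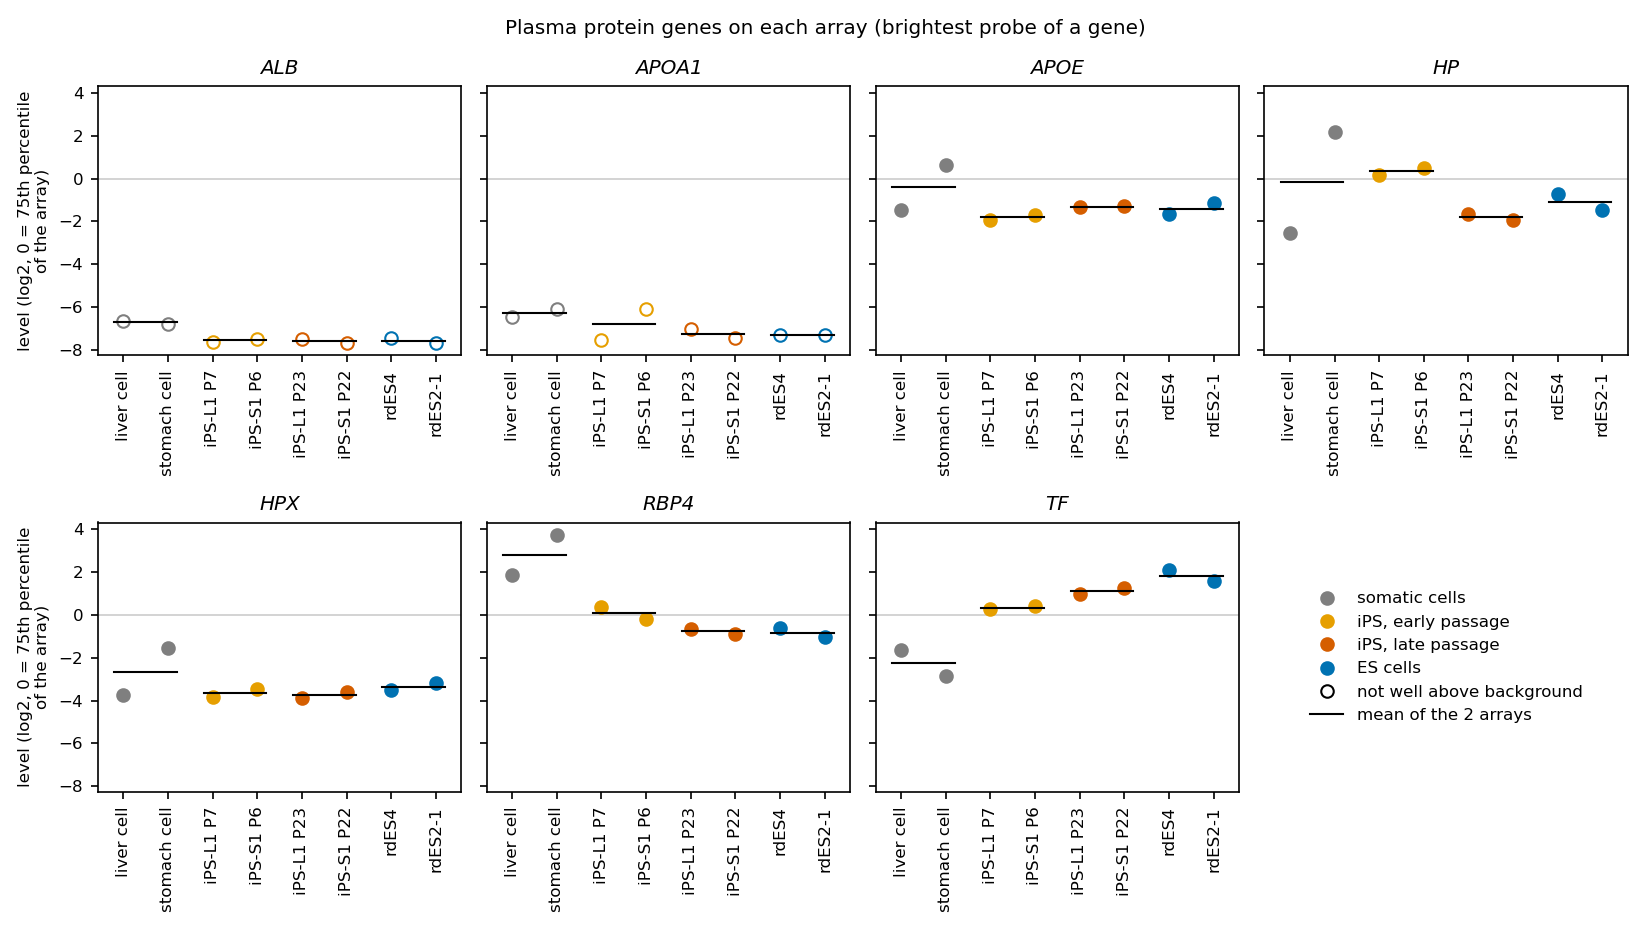
Level of each gene on each of the 8 arrays, as log2 signal relative to the 75th percentile of the array, by its brightest probe. Filled points are well above background, open points are not, and black lines are the means of the 2 arrays of a group. TF lay higher and RBP4 lower on all 6 ES and iPS arrays than on both somatic arrays. Of the 28844 tested probes, 10970 lay higher and 10108 lower in that way. HP lay below all ES and iPS arrays in the liver cells and above them in the stomach cells.

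TF and RBP4 differed in opposite directions between pluripotent and somatic cells, and the other 3 measured genes did not pass the test. TF was 7.76-fold higher in iPS cells and 16.6-fold higher in ES cells than in somatic cells. RBP4 was 8.88-fold lower in iPS cells and 12.5-fold lower in ES cells. Thus 1 of 5 tested members was higher and 1 lower in each of these comparisons. Among all 509 tested named genes, 22.2% were higher and 45.4% lower in iPS than in somatic cells, and 21.4% were higher and 42.6% lower in ES than in somatic cells. Either way, 67.6% of the named genes were called for iPS and 64% for ES cells. Over all tested probes, 66.6% were called between iPS and somatic cells (34.3% higher, 32.4% lower) and 64% between ES and somatic cells (34.4% higher, 29.6% lower). A call against somatic cells was thus the common outcome on these arrays, and the members' share was not above it. The median log2 difference of the 5 members was -1.03 for iPS and -0.91 for ES cells, beside -0.61 and -0.43 over the named genes. Both comparisons share the 2 somatic arrays.

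TF is the iron carrier of plasma, which delivers iron to dividing cells through the transferrin receptor. Its brightest probe read 2.09 in rdES4 and 1.57 in rdES2-1. In iPS-L1 it was at 0.29 at passage 7 and 1.00 at passage 23, and in iPS-S1 at 0.40 at passage 6 and 1.24 at passage 22. Liver cells were at -1.62 and stomach cells at -2.83. The order was therefore stomach cells, liver cells, early iPS, late iPS and ES cells. All 6 ES and iPS arrays lay above both somatic arrays, as they did for 10970 of the 28844 tested probes.

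The level of TF was 0.73 ± 0.12 (SD, n = 2 lines) in iPS cells, 1.83 ± 0.37 (SD, n = 2) in ES cells and -2.23 ± 0.85 (SD, n = 2) in somatic cells. The log2 difference from somatic cells was 2.96 ± 0.43 (SE) for iPS cells (limma, adjusted p = 0.00305) and 4.06 ± 0.43 (SE) for ES cells (limma, adjusted p = 0.00111). Which somatic culture was used set the size but not the call. Without the liver cells the difference was 3.56 for iPS and 4.66 for ES cells, and without the stomach cells 2.35 and 3.45. With normexp background correction the differences were 2.07 and 3.11. Leaving out the scaling between arrays moved all probes together: their median went from 0.02 to 1.03 for iPS and from 0.07 to 0.94 for ES cells, and the share of calls that were higher from 51.4% to 82.5% and from 53.7% to 81.5%. TF was then at 3.97 and 4.93, and relative to the median of all probes at 2.94 and 3.99 with and without scaling.

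The 5 TF probes ran in parallel. They correlated with one another at r between 0.996 and 0.999 over the 8 arrays, which all probes share. The log2 difference between iPS and somatic cells was 2.96 by the brightest probe and between 3.27 and 3.50 by the other 4, and all 5 were called (limma, adjusted p between 0.00305 and 0.00585). Between ES and somatic cells it was between 4.06 and 4.64. The probes differed in brightness: in stomach cells the brightest read an intensity of 21.8 and the others between 7.02 and 10.3, close to the lowest intensity of 6.16 that was well above background on that array. The brightest probe, the one farthest from that limit, gave the smallest difference.

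RBP4 carries retinol from liver stores to other tissues and is taken up through the receptor STRA6. Its single probe read 1.89 in liver cells and 3.75 in stomach cells. It was at -0.61 in rdES4 and -1.04 in rdES2-1. In iPS-L1 it was at 0.36 at passage 7 and -0.64 at passage 23, and in iPS-S1 at -0.17 at passage 6 and -0.89 at passage 22. Both somatic arrays lay above all others, as they did for 10108 of the 28844 tested probes. Early iPS cells came next, and the late iPS and ES arrays overlapped at the low end.

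Group levels of RBP4 were 2.82 ± 1.3 (SD, n = 2) in somatic cells, -0.33 ± 0.27 (SD, n = 2 lines) in iPS cells and -0.83 ± 0.30 (SD, n = 2) in ES cells. The log2 difference from somatic cells was -3.15 ± 0.62 (SE) for iPS cells (limma, adjusted p = 0.00838) and -3.65 ± 0.62 (SE) for ES cells (limma, adjusted p = 0.00529). Here too the somatic culture set the size: without the liver cells the differences were -4.08 and -4.58, and without the stomach cells -2.22 and -2.72. Without scaling between arrays they were -2.14 and -2.77, and relative to the median of all probes -3.17 and -3.72 with and without scaling. With slide as a block the iPS difference was -2.60 and was no longer called (limma, adjusted p = 0.10). In that fit 34.4% of all tested probes were called in place of 66.6%. Slide 3 held only stomach iPS arrays, so that fit compares only the liver line for iPS cells. Within slide 1, the log2 difference from the liver cells was -2.03 for the liver iPS line and -2.50 for rdES4. Within slide 2, rdES2-1 differed from the stomach cells by -4.79. TF stayed called with that block, at 2.44 for iPS cells (limma, adjusted p = 0.0255).

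**Figure D2:**
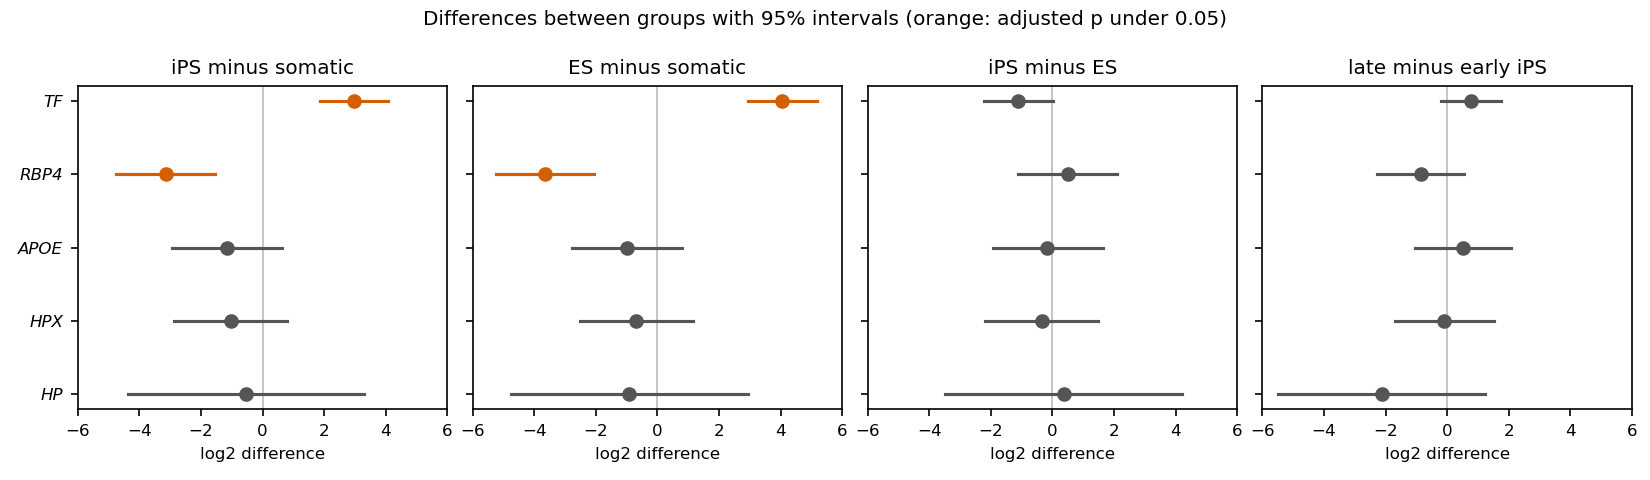
Log2 difference of the 5 measured genes in 4 comparisons (points) with 95% intervals from limma (lines), in orange where the adjusted p was under 0.05. TF (2.96 and 4.06) and RBP4 (-3.15 and -3.65) were called against somatic cells, and no gene was called between iPS and ES cells or between late and early iPS cells.

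HP, HPX and APOE did not pass the test against somatic cells, and for each of them the 2 somatic cultures lay far apart. For all 3 genes, and for RBP4, the higher culture was the stomach cells and not the liver cells. TF was the one measured member that was higher in liver cells, 2.30-fold, or 1.42-fold with normexp. These are single arrays, so the differences between the cultures have no test. They are set beside the same difference over all tested probes.

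HP binds free haemoglobin and hands it to the scavenger receptor CD163 for clearance. Its brighter probe was at 2.16 in stomach cells and -2.53 in liver cells, a difference of 4.70 (25.9-fold) that was larger than that of 99.8% of the tested probes. With normexp it was 3.71 (13.1-fold). In early iPS cells it was at 0.17 (iPS-L1) and 0.50 (iPS-S1), in late iPS cells at -1.65 and -1.93, and in ES cells at -0.73 (rdES4) and -1.46 (rdES2-1). The 6 ES and iPS arrays thus fell between the 2 somatic arrays, as was the case for 499 tested probes (1.73%). The somatic mean was -0.19 ± 3.3 (SD, n = 2), and the log2 difference was -0.54 for iPS cells (95% interval -4.38 to 3.30; limma, adjusted p = 0.764) and -0.91 for ES cells (95% interval -4.75 to 2.93; limma, adjusted p = 0.62).

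Neither of those HP differences has a settled direction. Without the liver cells HP was lower in iPS cells (-2.89; limma, adjusted p = 0.00314) and in ES cells (-3.25; limma, adjusted p = 0.00235). Without the stomach cells it was higher, by 1.81 (limma, adjusted p = 0.0117) and 1.44 (limma, adjusted p = 0.0226). A fit with 1 somatic array assumes that it varies like the other groups. The second HP probe followed the first with r = 0.997 over the 8 arrays, at 1.88 in stomach cells and -2.97 in liver cells.

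HPX binds haem released from haemoglobin and carries it to the liver. It was dim on every array, with intensities from 12.2 in liver cells to 52.8 in stomach cells. Its level was -1.55 in stomach cells and between -3.86 and -3.17 on the other 7 arrays, liver cells (-3.75) included. The stomach cells stood alone, 2.20 above the liver cells, which exceeded the difference of 97.6% of the tested probes. HPX was the one member spotted 5 times on each array. Over these spots, which are technical repeats, the SD of the log2 signal was between 0.063 and 0.25, which says nothing of the spread between cultures. With normexp the difference between the cultures was 0.94. The log2 difference from somatic cells was -1.03 for iPS cells (95% interval -2.87 to 0.80; limma, adjusted p = 0.25) and -0.69 for ES cells (95% interval -2.52 to 1.15; limma, adjusted p = 0.434).

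APOE is the ligand by which lipoprotein remnants bind the LDL receptor and its relatives. It was at 0.64 in stomach cells and -1.47 in liver cells. ES cells were at -1.68 (rdES4) and -1.14 (rdES2-1), early iPS cells at -1.95 (iPS-L1) and -1.69 (iPS-S1), and late iPS cells at -1.35 and -1.28. Liver cells lay within the range of the ES and iPS arrays, and the stomach cells lay 2.11 above the liver cells (4.31-fold), a difference larger than that of 97.4% of the tested probes. From somatic cells APOE differed by -1.15 in iPS cells (95% interval -2.94 to 0.64; limma, adjusted p = 0.197) and by -0.99 in ES cells (95% interval -2.78 to 0.79; limma, adjusted p = 0.261). Without the liver cells, APOE (-2.20) and HPX (-2.13) were called lower in iPS cells (limma, adjusted p = 0.00372 and 0.00285), and in ES cells at -2.05 and -1.79 (limma, adjusted p = 0.00456 and 0.00455). Then 4 of the 5 members were lower and 1 higher in both comparisons, where 65.6% of all tested probes were called for iPS and 63% for ES cells. Of 5 listed macrophage markers, 2 had a named probe, CD14 and MSR1, and both were lower in stomach than in liver cells. The fibroblast gene DCN was higher in stomach and MGP in liver cells. The part of such cells in the APOE difference was not tested.

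The gap between the cultures was far smaller between the iPS lines made from the same 2 tissues. HP differed by 0.34 between the stomach and the liver line at early passage and by -0.28 at late passage, beside 4.70 between the cultures. For HPX the values were 0.39 and 0.26 beside 2.20, and for APOE 0.26 and 0.07 beside 2.11. RBP4 was lower in the stomach line, by -0.53 and -0.24, while it was 1.86 higher in stomach than in liver cells. TF was 0.11 and 0.24 higher in the stomach line, while stomach minus liver cells was -1.20. The lines were also close over the array as a whole. At early and late passage, 69.6% and 71.4% of the tested probes differed less than HP, and 74.2% and 68% less than HPX. For APOE the shares were 61% and 23.9%, for RBP4 82.8% and 65.9%, and for TF 31.1% and 64.6%. The 2 lines were on different slides, and so were the 2 cultures. With 1 line of each origin, none of these differences could be tested.

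**Figure D3:**
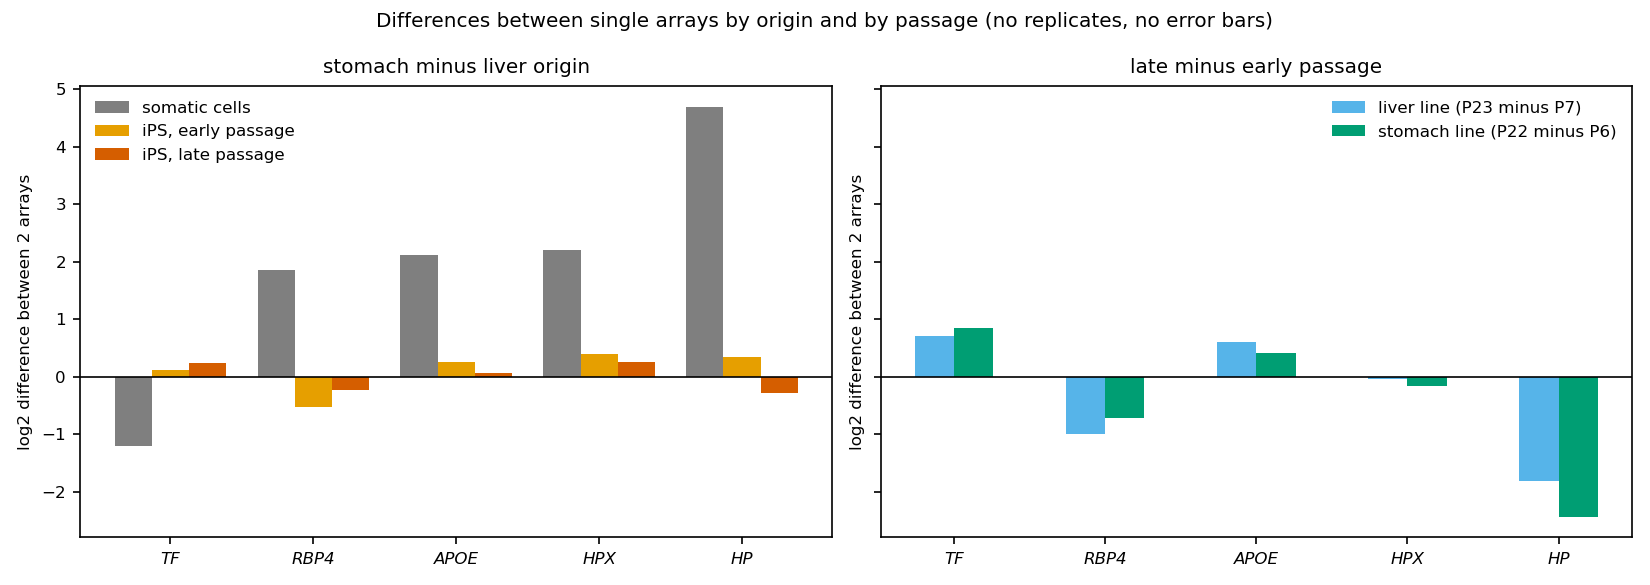
Left, the log2 difference of stomach minus liver origin between single arrays, for the somatic cells and for the iPS lines at early and late passage. Right, late minus early passage within each iPS line. Bars are differences between 2 arrays and have no error. The HP bar of the somatic cells reaches 4.70, while none of the iPS bars at left exceeds 0.53 in size. At right both lines have the same sign for every gene, except that HPX in the liver line turns with quantile normalization and normexp.

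Between iPS and ES cells no member was called. Across all tested probes 0 of 28844 (0%) passed in limma, while 2140 had an unadjusted p under 0.05, and none of the 5 members did. TF came nearest: its level was lower in iPS cells by -1.10 ± 0.43 (SE, 95% interval -2.21 to 0.01, limma, unadjusted p = 0.0517, adjusted p = 0.671). The intervals of the others were wide, from -1.94 to 1.63 for APOE, -1.10 to 2.09 for RBP4, -2.18 to 1.49 for HPX and -3.48 to 4.21 for HP. These widths include the gap between the 2 somatic cultures, because all groups share 1 estimate of the spread. In a fit of the ES and iPS arrays only, chosen after seeing the data, TF was at -1.10 ± 0.22 (SE; 95% interval -1.70 to -0.50; limma, unadjusted p = 0.00664, adjusted p = 0.332). No probe of the array was called in that fit either, with 3127 at an unadjusted p under 0.05.

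Between passages the 5 members had the same direction in both iPS lines, and none passed the test. The values for HP were the largest. Late minus early passage, the log2 difference of HP was -1.82 in the liver line (3.52-fold) and -2.44 in the stomach line (5.42-fold). With normexp it was -1.23 (2.34-fold) and -1.75 (3.35-fold). A change in 1 direction of at least 1.82 in both lines was seen for 0.582% of the tested probes. RBP4 was at -1.0 and -0.72, and TF at 0.71 and 0.84, sizes that 4.12% and 4.25% of the tested probes reached in both lines. APOE was at 0.60 and 0.41, and HPX at -0.04 and -0.16. All 5 members thus had the same sign in both lines, as did 65.2% of all tested probes. For HPX in the liver line the sign turned with quantile normalization (0.05) and normexp (0.03).

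The mean over both lines was -2.13 ± 1.38 (SE) for HP (95% interval -5.48 to 1.23; limma, adjusted p = 0.749), -0.86 ± 0.58 for RBP4 (limma, adjusted p = 0.766) and 0.77 ± 0.40 for TF (limma, adjusted p = 0.67). This fit took early and late arrays as separate groups and did not pair those of a line. In all, 8 probes (0.0277%) were called between late and early passage in limma, 2 higher (0.00693%) and 6 lower (0.0208%). No named gene was among them, while 2412 probes but no member had an unadjusted p under 0.05. For HP, the SD was 0.24 between the early lines and 0.20 between the late lines, against 3.3 in the somatic pair that enters the same estimate. In the fit of the ES and iPS arrays only, HP was at -2.13 ± 0.29 (SE; 95% interval -2.86 to -1.39; limma, unadjusted p = 0.000626, adjusted p = 0.208), RBP4 at -0.86 ± 0.25 (unadjusted p = 0.0173, adjusted p = 0.394) and TF at 0.77 ± 0.21 (unadjusted p = 0.014, adjusted p = 0.381). In that fit 1 probe (0.00347%) was called.

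Set against the ES mean, late iPS cells lay nearer than early ones for 4 of the 5 members. The distance of TF was -1.49 at early and -0.71 at late passage, that of RBP4 0.93 and 0.07, that of HP 1.43 and -0.70, and that of APOE -0.41 and 0.09. HPX was the exception, at -0.30 and -0.39. Over all tested probes, 56.9% lay nearer to the ES mean at late passage. HP went past the ES mean between early and late passage.

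**Figure D4:**
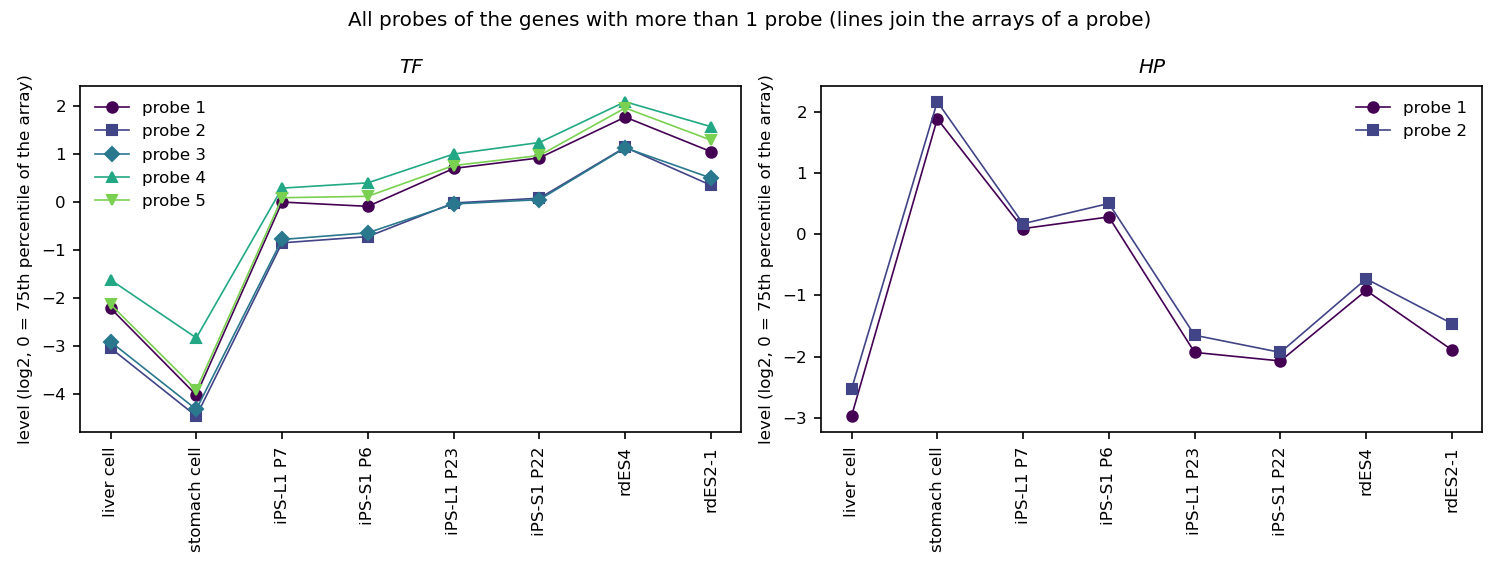
Level on each array, as log2 signal relative to the 75th percentile of the array, of all 5 probes of TF (left) and both probes of HP (right); lines join the arrays of a probe. Within a gene the probes rise and fall together, with r of at least 0.996 for TF and 0.997 for HP, and the brightest TF probe stands farthest above the others in stomach cells.

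The members did not share 1 pattern over the 8 arrays. APOE and HPX followed each other most closely (r = 0.942), and RBP4 and TF ran opposite to each other (r = -0.968). The first value depends strongly on 1 array: stomach cells were at 0.64 for APOE and -1.55 for HPX. Next came rdES2-1, at -1.14 and -3.17. The second value carries the split between pluripotent and somatic arrays, which did not overlap for 73.1% of all tested probes. HP correlated with APOE at 0.544 and with TF at -0.448. These correlations, and those with other genes below, describe 8 arrays, of which 4 are 2 lines at 2 passages.

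Among the 372 other named genes measured on all arrays, the pattern of TF was most like that of USF1 (r = 0.968), a transcription factor, CXADR (0.958), a cell adhesion protein, and SGCB (0.958), a sarcoglycan. That of RBP4 was most like MT3 (0.989), a metallothionein, CLU (0.983), the secreted chaperone clusterin, and ARG2 (0.976), an arginase. HPX was most like CAPS (0.977), followed by APOE (0.942) and the calcium channel subunit gene CACNB2 (0.891). APOE was most like HPX, GPX1 (0.942), a glutathione peroxidase, and SSR1 (0.929). HP was most like SCNN1B (0.891), a sodium channel subunit, NCF1 (0.883) and SLC22A7 (0.832), an organic anion transporter. Several neighbours spanned a much narrower range of levels over the arrays than the member. SCNN1B, NCF1 and SLC22A7 spanned 1.04, 0.88 and 1.15, against 4.70 for HP. USF1 and SGCB spanned 1.35 and 1.1, against 4.92 for TF. GPX1 and SSR1 spanned 1.36 and 0.69, against 2.59 for APOE, and CAPS 1.19, against 2.31 for HPX.

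Other secreted liver proteins that were called with scaling were all lower in pluripotent than in somatic cells, in part through the filter on dim probes. Of 60 such genes listed, 19 had a named probe and 10 were tested, of which 7 were lower in iPS and 6 lower in ES cells than in somatic cells, and none was higher. This compares with 45.4% and 42.6% lower among all tested named genes. Without scaling, where the median of all probes was at 1.03 and 0.94, 5 were lower in each comparison, and 1 was higher in iPS and 3 in ES cells. The median log2 difference was -2.52 in iPS and -2.08 in ES cells, or -1.93 and -1.91 with genes below background at their bound. Of the tested genes, SAA3, IGF1 and GC were tested only because both somatic arrays were well above background. Their direction was thereby set in advance, and the counts of lower genes above include them. Of the other tested genes, ITIH3, ITIH4, PON3 and LCAT were called lower in iPS cells, and ITIH3, ITIH4 and PON3 in ES cells. The rest passed in neither comparison. SAA3, an acute phase serum amyloid A, was at 6.61 in liver cells and 7.95 in stomach cells, and did not rise well above background on any ES or iPS array, which put it at least 6465.4-fold lower in iPS cells (limma, adjusted p = 9.06e-05). Its family has near-identical members that a probe may not separate. An "at least" fold sets the bright group against the lowest signal well above background on the dim arrays, where that exceeds the gene's own. The p beside such a fold belongs to the fitted difference from the dim arrays' own signals (-14.68 for SAA3). It does not test the bound, and it adds no support for a direction that the filter had set. ITIH3, a heavy chain of the inter-alpha inhibitor family, was lower in iPS cells, at a log2 difference of -6.72 ± 0.44 (SE; limma, adjusted p = 0.0003) and was measured on 1 of 4 iPS arrays. Setting the other 3 iPS arrays to the lowest measurable signal gave -6.34. PON3, a paraoxonase carried on lipoproteins, was lower, at -3.64 ± 0.36 (SE; limma, adjusted p = 0.00086), measured on 3 of 4 iPS arrays. GC, the vitamin D carrier, was at least 3.41-fold lower (limma, adjusted p = 0.00196), and its level in somatic cells was low, at -3.87 and -3.35. The complement gene C9 (-0.39), the acute phase gene ORM1 (0.18) and the coagulation gene F10 (-0.70) were measured on all arrays and did not pass in iPS cells. The untested genes of this list were each well above background on at most 1 somatic array. F7 was well above background on 1 ES and 1 iPS array, CRP on 1 iPS array, and neither on a somatic array. F7 was at -2.47 in rdES4 and -2.31 in iPS-S1 at passage 22, beside -6.57 and -6.98 in liver and stomach cells.

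Of 7 named genes of the apolipoprotein and lipoprotein list, 6 were tested, of which 4 were lower in iPS and 3 in ES cells, and none was higher. Without scaling, with that same shift of all probes, these counts were 2 and 1, and 2 genes were higher in ES cells. Over all tested named genes, with scaling, 45.4% were lower in iPS and 42.6% in ES cells. VLDLR, a receptor that binds APOE, was lower in iPS cells, at a log2 difference of -5.67 ± 0.22 (SE; limma, adjusted p = 0.000101), with levels of 2.26 and 2.73 in liver and stomach cells and between -3.95 and -2.58 on the other arrays. SCARB1, the receptor for high-density lipoprotein, was lower, at -1.64 ± 0.21 (limma, adjusted p = 0.00183). LCAT, the plasma enzyme that esterifies cholesterol, was lower, at -1.20 ± 0.27 (limma, adjusted p = 0.0135), and also belongs to the list of secreted proteins. Relative to the median of all probes LCAT was at -1.22 with and without scaling. In ES cells LCAT was at -0.71 (limma, adjusted p = 0.0711), and passed with tissue of origin as a replicate block (limma, adjusted p = 0.0426). APOD was at -2.12 ± 0.64 (limma, adjusted p = 0.0339), measured on 3 of 4 iPS arrays. It did not pass under 5 of 17 alternatives, among them normexp (-0.47; adjusted p = 0.10) and the fit without the liver cells (-1.39; adjusted p = 0.103). APOC4 (-0.43) and PLTP (-0.39) did not pass.

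Genes that handle iron, haem and haemoglobin were represented by 6 named genes. Of the 5 tested, 3 were lower in iPS and in ES cells, beside 45.4% and 42.6% of all tested named genes. This was with scaling to the 75th percentile. Without it, when the median of all probes was at 1.03 and 0.94, none was lower and 1 was higher in each comparison. FTL, the ferritin light chain that stores iron, was at -1.06 ± 0.14 in iPS cells (SE; limma, adjusted p = 0.00214), but at -0.23 with quantile normalization (limma, adjusted p = 0.18). With slide as a block FTL (adjusted p = 0.059) and HBA (adjusted p = 0.0746) did not pass in iPS cells. HMOX2, a haem oxygenase, was at -1.53 ± 0.17 (limma, adjusted p = 0.00131). HBA, a haemoglobin gene with near-identical copies that a probe may not separate, was at -1.03 ± 0.17 (limma, adjusted p = 0.00409). Relative to the median of all probes FTL was at -1.08, HMOX2 at -1.55 and HBA at -1.05, each with and without scaling. ACO1, the aconitase that also binds iron-responsive RNA elements, was at 0.37 ± 0.25 (limma, adjusted p = 0.237), or 0.35 relative to the median of all probes with and without scaling. It was called higher without the stomach cells (0.67; limma, adjusted p = 0.0443). TF was higher in iPS cells under each of these scalings.

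Of the retinoid list, ALDH1A1, an enzyme that makes retinoic acid, and AOX1, an aldehyde oxidase, were the 2 tested genes. Both were lower in iPS and in ES cells, as was RBP4. ALDH1A1 and AOX1 were well above background only on the somatic arrays, which set their direction in advance. The p-values beside their bounds below are those of the fitted differences and add no support for that direction. In iPS cells AOX1 was lower by a factor of at least 106.8 (limma, adjusted p = 0.000168) and ALDH1A1 by at least 7.04 (limma, adjusted p = 0.0114). ALDH1A1 did not pass with normexp in either comparison (adjusted p = 0.114 and 0.119), and in ES cells it did not pass without rdES4 (0.0544) or rdES2-1 (0.0565). AOX1 was at 1.78 in liver cells and 0.94 in stomach cells, and ALDH1A1 at -0.91 and -4.21. Of the liver transcription factors, all 3 tested genes were lower in both comparisons: the bile acid receptor gene NR1H4, at least 16.7-fold lower in iPS cells (limma, adjusted p = 0.00413), AHR, at least 5.89-fold (limma, adjusted p = 9.2e-05), and PPARG, at a log2 difference of -2.29 ± 0.25 (SE; limma, adjusted p = 0.00113). NR1H4 was at 0.26 in liver cells and -2.89 in stomach cells, and did not pass with normexp (adjusted p = 0.0795 for iPS and 0.0709 for ES cells). NR1H4 and AHR were well above background only on the somatic arrays, which set their direction in advance, while PPARG was measured on all arrays. The p-values of NR1H4 and AHR thus add no support for that direction either, and do not test the bounds. Over all tested named genes, 45.4% were lower in iPS and 42.6% in ES cells. NR1I2 did not rise well above background in any sample.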

How the data were processed

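Total RNA from 8 cultures was labelled with Cy3 and hybridised to 1 array each. Per the file headers, the deposited intensities were made by Agilent's Feature Extraction software (10.5.1.1), with background and spatial trends removed and no scaling between arrays. The authors' deposited log2 table matched these values scaled to the 75th percentile and centred per probe on the median of 8 arrays (r = 1 on each array; column medians between -0.0416 and 0.342), and served as an alternative.

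Here, log2 processed intensities minus the 75th percentile of each array were used, repeated spots averaged, and 22 probes with a spot marked uneven or outlying left out. Tested probes were well above background on both arrays of at least 1 group. Symbols came from the RefSeq table of assembly mOryCun1.1, matched by accession without version (1933 probes, 680 genes). It was used for names only. limma 3.58.1 in R 4.3.3 fitted 6 units in 3 groups, or 8 arrays in 4 groups for passage, and was tested on simulated data. Named genes were all 7 members, at most 4 tested genes of each other list with the largest moderated statistics between iPS and somatic cells, and the 3 nearest patterns of each member. Tested list genes outside this rule (C9, ORM1, F10, IGF1, ITIH4, APOC4, PLTP) and the untested NR1I2, F7 and CRP were added after their values were seen. Marker lists of cholangiocytes, endothelium and visceral endoderm had no named probe. Alternatives were quantile normalization, no scaling, normexp (offset 50) on the median spot signal, no filter, slide and replicate blocks, unaveraged lines, probe means and each array left out. Members and lists were chosen with earlier results of these data known. Same-line early and late iPS arrays deviated together from their group means (r = 0.224). Both arrays of a line were on the same slide, so line and slide cannot be told apart there. iPS arrays and cells of origin did not deviate together (r = 0.0214 and 0.0131). The pairing comes from the line names.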

Additional observations from a re-analysis of the deposited data

Results flagged for a closer look

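HP was flagged because the iPS lines lay on opposite sides of their cells of origin. In the liver line HP was above the liver cells by 2.70 at early and 0.89 at late passage on the log2 scale. In the stomach line it was below the stomach cells, at -1.66 early and -4.09 late. With 1 culture and 1 line per tissue, the difference between the origins was not tested. The other measured genes did not show such opposite directions on all 4 iPS arrays.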

How the results depend on the processing

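The 5 tested genes in 4 comparisons were recomputed under 9 other settings (8 for passage) and without each array in turn. Of these 335 values, 326 kept their side of the threshold, with the direction of those called. They include iPS against ES cells and late against early passage. There 0% and 0.0277% of all tested probes were called, so staying uncalled was the common outcome. Uncalled values counted as kept even where their sign changed. HP in iPS minus somatic cells, for example, went from -0.54 to 0.47 without scaling. TF stayed called against somatic cells under all of them, from 2.07 to 3.97 in iPS and from 3.11 to 4.93 in ES cells, and RBP4 lost its call only in iPS cells with slide as a block. That block left 1 member called between iPS and somatic cells instead of 2, while the share of all tested probes called went from 66.6% to 34.4%. It compares the liver line alone for iPS cells. Without single arrays, 2 to 5 members were called between iPS and somatic cells and 2 to 5 between ES and somatic cells, while 63.5% to 66.7% and 52% to 64% of all tested probes were called in those fits. The highest counts came without the liver cells, where APOE, HP and HPX were lower. Without single arrays, HP ranged from -2.89 to 1.81 for iPS minus somatic cells and from -3.25 to 1.44 for ES minus somatic cells, with the reversed value without the stomach cells. No member was called between iPS and ES or late and early iPS cells under any setting. With tissue of origin as replicate block, which the ES lines do not carry, 2, 2, 0 and 0 members were called in the 4 comparisons, and no member's call changed. The other lists' alternatives and the fit of ES and iPS arrays only were chosen after seeing the data; in the lists, ACO1 went from -0.10 to 0.77 in ES cells without scaling, where the median of all probes went from 0.07 to 0.94, and relative to that median it was at -0.17 in both. normexp used the median spot signal, since the files give no mean signal. Of 45 values between the somatic cultures and between passages under 3 other scalings, 43 kept their sign. HPX lies near the detection limit, and TF in stomach cells does for 4 of 5 probes, so the size of those differences is uncertain. For TF, the brightest probe gave the smallest difference from somatic cells.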
